A study of Mus musculus with 12 samples.

Results

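The 356 regions described here are stretches of the mouse genome where binding of Zic1/2 was called in every library of days 1 and 3 of culture and in none of the libraries of days 5 and 7. Binding had been mapped in cultured cerebellar granule neurons on days 1, 3, 5 and 7 in vitro (DIV1, DIV3, DIV5 and DIV7), with 3 libraries a day, which the design text gives as biological replicates. The peaks of all 12 libraries on chromosomes 1 to 19 and X were merged wherever they overlapped by at least 1 bp, which gave 282545 regions. Of these, 22976 had a peak in all 6 libraries of DIV1 and DIV3, and 356 of those had no peak in any of the 6 libraries of DIV5 and DIV7. The regions were chosen by the presence or absence of listed peaks in these same libraries, so the difference between early and late days is the rule itself and carries no test.

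All groups were granule neurons grown in Neurobasal medium with calf serum and B27, and all were profiled with one antibody raised to the C terminus of Zic1/2. Cytosine arabinoside, which kills dividing cells, was given at 1 uM on day 2, so it reached the DIV3, DIV5 and DIV7 cells but not the DIV1 cells. Day of culture and exposure to this drug cannot be told apart between DIV1 and the later days. Genotype, strain and age of the donor mice are not given in the labels, and a monolayer culture lacks the neighbouring cells of the cerebellum. CUT&RUN measures where an antibody-guided nuclease releases DNA, and RNA was not measured, so nothing here says whether a gene near a region was expressed.

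Zic1 and Zic2 bind DNA through zinc fingers, and both are made in granule neuron progenitors and remain in the neurons that these give rise to. Granule neurons leave the cell cycle, extend axons, migrate and then form synapses, and Zic factors bind both promoters and distal enhancers in them. In CUT&RUN, a region with few reads can be bound weakly, bound in a part of the cells, or close to the background of the assay, and the peak list does not separate these cases.

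Genes that mark the labelled cell type were looked up, which does not identify the cell type. Of 17 genes that mark granule neurons and their progenitors, 13 had a region called in all 12 libraries inside or within 10 kb (76.5%). Of the 17, 0 had one of the 356 regions, beside 1.03% of all protein-coding genes. A region of all 12 libraries was at 50.2% of all protein-coding genes. It was at 79.4% of axon guidance and adhesion genes and 75% of ion channel genes, which mark no single cell type. The peak lists held 65102 to 89417 peaks a library. Reads in peaks came to 2.71 to 3.27M at DIV1, 2.08 to 3.08M at DIV3, 1.67 to 2.74M at DIV5 and 1.01 to 2.49M at DIV7. The later days therefore had fewer reads in peaks, although their ranges overlapped the earlier ones. The 3 DIV1 libraries and 1 library of each other day held 51-base reads and the remaining libraries 50-base reads.

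Few of the regions lay on an annotated promoter, and the promoters of protein-coding genes that they reached are shown because their sequence could be read. In the RefSeq annotation of GRCm38.p6, the same assembly as mm10, 11 of the 356 regions (3.09%) overlapped a promoter window, taken as 250 bases before to 50 bases after a gene's start. Of these, 4 belong to protein-coding genes. Each is printed 5′ to 3′ on the strand of its gene, with the bases that lie inside the Zic region in capitals. They are the promoters of Abca4 (chr3:122044210-122044509, plus strand), Cdcp2 (chr4:107096641-107096940, plus strand), Pdpn (chr4:143299515-143299814, minus strand) and Crispld2 (chr8:119992188-119992487, plus strand).
Abca4: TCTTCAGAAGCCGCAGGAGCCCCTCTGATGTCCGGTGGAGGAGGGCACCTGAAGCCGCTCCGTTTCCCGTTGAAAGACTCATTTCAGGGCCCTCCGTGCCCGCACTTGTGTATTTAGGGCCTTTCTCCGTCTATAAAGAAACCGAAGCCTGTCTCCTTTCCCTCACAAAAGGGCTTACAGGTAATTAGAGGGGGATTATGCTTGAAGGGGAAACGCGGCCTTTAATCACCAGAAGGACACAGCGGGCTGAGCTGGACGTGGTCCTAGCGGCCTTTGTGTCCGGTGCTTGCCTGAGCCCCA
Cdcp2: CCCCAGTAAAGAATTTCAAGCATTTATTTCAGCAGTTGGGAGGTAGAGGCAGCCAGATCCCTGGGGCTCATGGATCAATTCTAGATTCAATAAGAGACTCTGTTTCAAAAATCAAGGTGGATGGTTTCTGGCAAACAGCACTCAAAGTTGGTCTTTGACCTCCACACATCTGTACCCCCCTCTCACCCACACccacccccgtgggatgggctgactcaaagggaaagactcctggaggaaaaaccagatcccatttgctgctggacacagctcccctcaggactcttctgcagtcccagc
Pdpn: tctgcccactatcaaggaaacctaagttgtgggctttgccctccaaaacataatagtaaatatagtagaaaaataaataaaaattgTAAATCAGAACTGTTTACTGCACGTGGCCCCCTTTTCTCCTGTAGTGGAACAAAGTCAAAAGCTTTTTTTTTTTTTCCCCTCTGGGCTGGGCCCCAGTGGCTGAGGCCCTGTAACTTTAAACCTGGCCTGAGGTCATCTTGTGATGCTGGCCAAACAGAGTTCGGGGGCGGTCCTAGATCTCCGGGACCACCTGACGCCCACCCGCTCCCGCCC
Crispld2: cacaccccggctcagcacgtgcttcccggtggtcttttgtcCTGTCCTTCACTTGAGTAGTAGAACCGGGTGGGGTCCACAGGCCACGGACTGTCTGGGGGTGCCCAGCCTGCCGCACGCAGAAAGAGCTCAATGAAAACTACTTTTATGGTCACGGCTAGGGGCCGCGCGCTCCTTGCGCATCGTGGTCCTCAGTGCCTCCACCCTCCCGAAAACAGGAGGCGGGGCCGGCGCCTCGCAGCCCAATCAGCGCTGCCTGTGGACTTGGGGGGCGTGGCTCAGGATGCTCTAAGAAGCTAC

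Abca4 encodes a retinoid transporter of photoreceptors, and all 300 bases of its window lay inside the region. Pdpn encodes podoplanin, a membrane glycoprotein of lymphatic and epithelial cells, with 214 bases inside, and Crispld2 encodes a secreted protein, with 259 bases inside. The Cdcp2 window had 192 bases inside. These were weak regions. The Abca4 region held 40, 14 and 11 reads in DIV3 libraries, against 40, 30 and 12 reads in DIV1 libraries, so the days overlapped. Here and below, the 3 values of a day are those of its replicates 1, 2 and 3 in that order. The Cdcp2 region held 39, 31 and 25 reads in DIV3 libraries, against 55, 48 and 56 reads in DIV1 libraries. Every DIV3 library was below every DIV1 library at Cdcp2 in reads as listed, which are not scaled to depth. In such reads this was so at 101 of the 356 regions (28.4%), beside 13.8% of all 22976 regions, and every DIV3 library was above every DIV1 library at 4 (1.12%), beside 4.31%. The percentile of the maximum signal within a library, the measure tested further on, overlapped between the days at Cdcp2. The Pdpn region held 25, 9 and 10 reads in DIV3 libraries and 59, 21 and 34 reads in DIV1 libraries, with overlap. The Crispld2 region held 23, 9 and 11 reads in DIV3 libraries and 36, 27 and 27 reads in DIV1 libraries, with no overlap in reads but with overlap in percentiles.

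The promoter windows were searched on both strands for the letters of known motifs. The Zic motif CAGCAGG was in 0 of the 11 windows, against 10.5% of 32544 promoters in the annotation and 9.83% of the 11387 promoters that other regions of all 6 early libraries overlapped. A longer form of the Zic motif, CNCAGCNGG, was in 1, the Abca4 promoter, where it reads CACAGCGGG at bases 238 to 246 of the window. It was in 9.54% of all promoters and 12.6% of those overlapped by other early regions, and where its second N is A it contains CAGCAGG. The E-box CANCTG, read by basic helix-loop-helix factors such as Atoh1 and Neurod1, was in 9 of the 11 windows, against 51.5% of all promoters and 41.9% of those overlapped by other early regions. The letters TTGGC, the short form of the nuclear factor I motif, were in 6 of 11, against 46.9% and 50.6%. With 11 windows these are descriptions, and a match is not a bound site. Regions away from promoters were not searched, since no genome sequence was used here.

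One region covered the hairpin of a microRNA. The region at chr2:151967258-151967857, whose nearest protein-coding gene is Fam110a at 1539 bp, contains Mir1953. Its mature product, encoded at chr2:151967581-151967602 on the minus strand, is printed from RefSeq with the seed, bases 2 to 8, in capitals.
mmu-miR-1953: uGGGAAAGuucucaggcuucug

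At that region the DIV3 libraries had 11, 12 and 11 reads, against 38, 15 and 30 reads in DIV1 libraries. All 3 DIV3 libraries were near the smallest number that the lists contain.

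The regions were faint compared with the other regions bound on both early days. Their median number of reads was 32.5, 19 and 18 in the 3 DIV3 libraries and 42, 33.5 and 31 in the 3 DIV1 libraries. The other 22620 regions with a peak in all 6 early libraries had medians of 81, 47 and 55 reads at DIV3 and 83, 65 and 67 reads at DIV1. The lowest value over the 356 regions was 9 to 12 reads in each early library, which is the floor of the peak lists, and the highest was 88 reads at DIV3 and 186 reads at DIV1. The median of the maximum signal, the highest number of reads stacked on one base, was 7, 5 and 6 in DIV3 libraries and 8, 7 and 7 in DIV1 libraries. The regions were also narrow, with a median width of 930.5 bp (range 467 to 2394 bp), against 1439 bp for the other regions with a peak in all 6 early libraries.

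**Figure D1:**
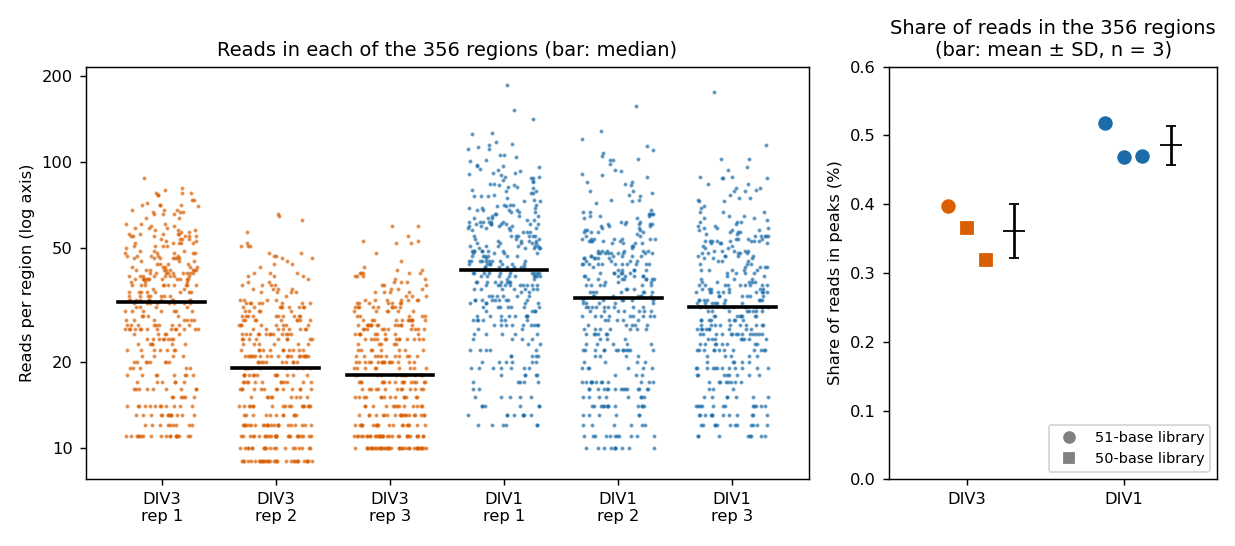
Reads in each of the 356 regions (left, log axis, one point a region, bar at the median) in the 3 DIV3 and 3 DIV1 libraries, and the percentage of each library's reads in peaks that fell in the 356 regions (right, points are libraries, bars are mean ± SD, n = 3). The shares are 0.320 to 0.398% at DIV3 and 0.468 to 0.518% at DIV1.

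How faint a region was early went with whether it was called late. Regions with a peak in all 6 early libraries were counted by the number of DIV5 and DIV7 libraries that also had a peak. None of the late libraries had one at 356 regions (1.55%), 1 at 754, 2 at 1170, 3 at 1764, 4 at 2633, 5 at 4058 and all 6 at 12241. The median over regions of the mean early read number was 29.3, 32.6, 34.4, 38.5, 44.5, 53.8 and 92.8 along that series. The 356 regions are thus the low end of a gradual series and not a separate group in reads or width. Median width grew along it, with 930.5, 1004, 1032.5, 1105, 1190, 1317 and 1690 bp. Strength was also ranked as the percentile of the maximum signal among the 22976 regions within a library, averaged over the 6 early libraries. On that scale 51 of the 356 regions lay below percentile 10, which is 13.7% of all regions there, and 114 lay between percentiles 10 and 20 (5.24%). Only 11 lay above percentile 50.

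**Figure D2:**
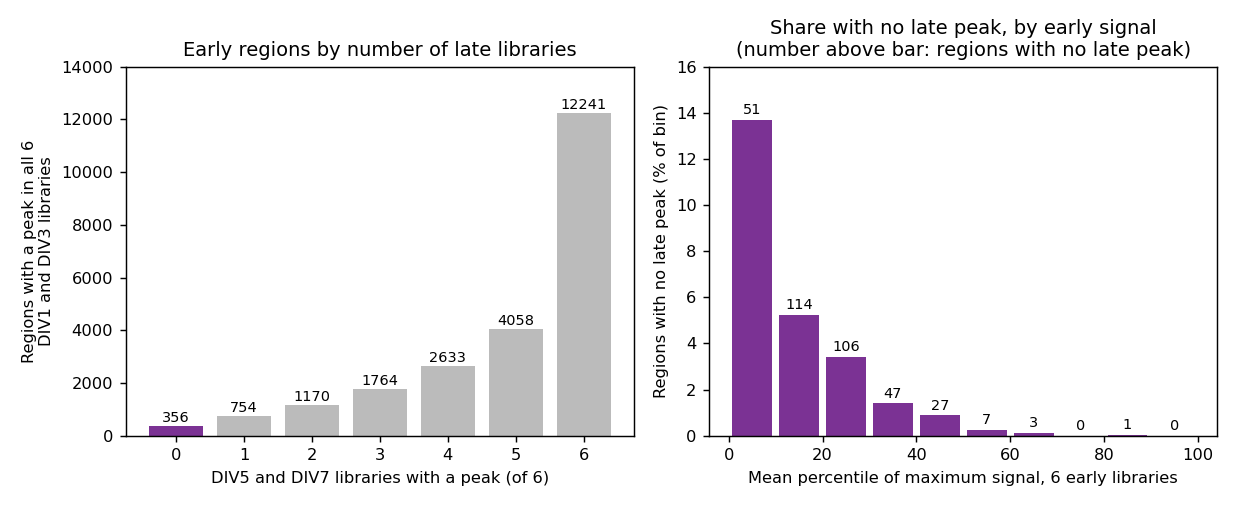
Number of regions called in all 6 early libraries (DIV1, DIV3) by the number of DIV5 and DIV7 libraries with a peak (left), and the percentage of such regions with no late peak in each bin of early signal (right, x axis is the mean percentile of maximum signal over the 6 early libraries, numbers above bars count regions). The share with no late peak is 13.7% in the lowest bin and 0.0518% between percentiles 80 and 90.

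The edge of the rule shows how near many other regions came to it. Of the 754 regions with a peak in 1 late library, 339 had it in DIV5 replicate 1, the late library with the most reads in peaks, and 25 in DIV7 replicate 3. A further 762 regions had no late peak but a peak in only 5 of the 6 early libraries, and 264 and 239 of those lacked it in DIV3 replicates 2 and 3. Without DIV5 replicate 1 the rule would keep 695 regions, without DIV3 replicate 2 it would keep 622 and without DIV3 replicate 3 it would keep 596. Applied to the 51-base libraries alone, 4 early and 2 late, the rule would keep 6274 of 29801 regions called in all the early ones (21.1%). Applied to the 50-base libraries alone, 2 early and 4 late, it would keep 2300 of 33605 (6.84%). Both of these ask for fewer libraries than the full rule. Applied to the part of each peak that holds its maximum signal, the rule would keep 126.

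Depth was set beside these counts. The median region of the 356 had 10.6 reads for each 1M reads in peaks over the early libraries. Multiplied by the reads in peaks of the late libraries, this would be 29, 21.2 and 17.6 reads in the 3 DIV5 libraries and 10.7, 26.3 and 16.4 reads in the 3 DIV7 libraries. The smallest peaks in those 6 lists had 7 to 10 reads, and 64.0 to 73.6% of their peaks had fewer reads than these scaled values. The part that depth and calling had in the absence of late peaks was not tested.

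Around many of the regions, late libraries did have peaks close by. A peak of any DIV5 or DIV7 library lay within 1 kb of 105 of the 356 regions (29.5%), without overlapping them, and within 5 kb of 261 (73.3%). For the other regions with a peak in all 6 early libraries the same shares were 44.9% and 77.1%, counting peaks that did not overlap the region. The median gap from a region to the nearest late peak was 2169 bp, against 1296 bp for those other regions. The number within 1 kb was 64 for DIV5 replicate 1 and 17 for DIV7 replicate 3.

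The 6 early libraries placed their peaks at one spot in most of the regions. In 241 of the 356 (67.7%) at least 1 base was covered by a peak of all 6 libraries, with a median common stretch of 155 bp, and in 28 fewer than 5 libraries met on any base. In those 28 the region was held together by a chain of overlapping peaks. Among regions of at most 2 kb, the share with a base common to all 6 was 67.7% for these regions and 88.4% for the others with a peak in all 6 early libraries. Where such a base existed, the median common stretch was 154 bp in these regions and 360 bp in the others. The points of highest signal lay a median of 69.5 bp from their common middle in the early regions of at most 2 kb, and 63.3 bp in the other regions with a peak in all 6 early libraries.

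The regions lay away from genes' ends. Within 1 kb of either end of a protein-coding gene were 22 of the 356 regions (6.18%, exact 95% interval 3.91 to 9.21%), 165 (46.3%) were deeper inside a gene, and 169 (47.5%) were between genes. Of the other regions with a peak in all 6 early libraries, 41.2% were within 1 kb of a gene end, 32.9% deeper inside and 25.9% between genes. Regions of all 12 libraries had 58.6% at gene ends. The share at gene ends also grew along the series of late libraries, with 6.18, 6.63, 8.21, 11.5, 19.1, 32.1 and 58.6%. Over all 282545 merged regions, most of them called in few libraries, the split was 9.1, 43.8 and 47.1%. The intervals cover counting error only. Gene ends were taken from gene spans without strand or exons, so both ends of a gene were pooled, although the promoter windows above carry a strand.

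**Figure D3:**
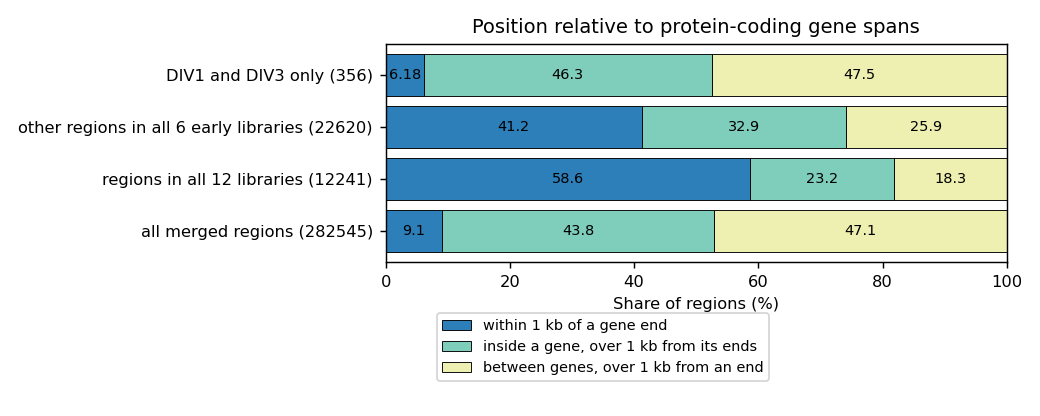
Percentage of regions within 1 kb of a protein-coding gene end, deeper inside a gene, or between genes, for the 356 early regions and the sets they are set beside. The 356 regions have 6.18% at gene ends and the regions of all 12 libraries 58.6%.

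Genes that held the regions were long. A region lay inside or within 10 kb of 223 protein-coding genes (1.03% of 21631), whose median length was 110605 bp, against 23865 bp for genes with other regions of all 6 early libraries and 17329 bp for all genes. Of these 223 genes, 163 (73.1%) also had a region called in all 12 libraries inside or within 10 kb, as did 50.2% of all genes. Among genes with other regions of all 6 early libraries it was 81.3%. Those other regions include the regions of all 12 libraries, so the 81.3% is not a like-for-like background. Most of the 223 genes thus had another Zic region that was called on every day of culture. No protein-coding gene lay within 10 kb of 137 of the regions (38.5%), and 68 (19.1%) were over 100 kb from any. Being near a gene does not show that a region acts on it.

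The strongest of the regions, by mean percentile over the 6 early libraries, lay at chr9:55055334-55056470, which is 6381 bp from Chrnb4, the gene of a nicotinic acetylcholine receptor beta subunit. It held 59, 28 and 39 reads in DIV3 libraries, against 84, 94 and 79 reads in DIV1 libraries. No DIV3 library reached the lowest DIV1 library in reads as listed. Its maximum signal stood at percentiles 67.9, 86.0 and 80.9 in DIV3 libraries and 78.9, 95.8 and 96.8 in DIV1 libraries, where the days overlapped. A weaker region of the set, at chr9:55054207-55055187, ended 146 bp from it and held 22, 12 and 18 reads in DIV3 libraries and 41, 59 and 34 reads in DIV1 libraries. No late peak lay within 2873 bp of either. Chrnb4 had 0 regions of all 12 libraries inside or within 10 kb, and only 2 of 18 nicotinic and adrenergic receptor genes had any.

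The second strongest region was 7397 bp from Pipox, which encodes a peroxisomal oxidase of pipecolic acid. It held 80, 43 and 40 reads in DIV3 libraries and 96, 52 and 88 reads in DIV1 libraries. Inside Grip1, whose product scaffolds AMPA receptors at synapses, a region at chr10:120031019-120032097 held 78, 35 and 52 reads in DIV3 libraries and 106, 73 and 52 reads in DIV1 libraries. At both places the days overlapped, and DIV3 replicate 1 was the highest DIV3 library.

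Several strong regions were far from any gene. The one nearest Tafa5, a gene for a secreted chemokine-like protein of the brain, was 176272 bp away, and its 6 peaks had their highest points a median of 3.5 bp from their middle. It held 70, 63 and 60 reads in DIV3 libraries and 95, 103 and 54 reads in DIV1 libraries, and DIV1 replicate 3 was the lowest of the 6. A region 411369 bp from Adra2a, the gene of an alpha-2 adrenergic receptor, held 38, 33 and 26 reads in DIV3 libraries and 88, 64 and 45 reads in DIV1 libraries. The days did not overlap in reads, but they did in percentiles, with 58.1, 69.9 and 33.3 in DIV3 libraries and 63.2, 86.2 and 33.6 in DIV1 libraries. The nearest late peak to it was 26998 bp away. The other regions named by strength lay near Ano5, Casp12, Rtl1, Hpn, Ankrd55, Elfn2 and B3gat1, with mean percentiles of 49.9 to 57.9. Of these, the Elfn2 region showed the widest gap in reads between the days, with 78, 57 and 13 reads in DIV3 libraries and 186, 158 and 176 reads in DIV1 libraries, and its percentiles did not overlap either. Elfn2 encodes a leucine-rich repeat protein of the neuronal surface. At 2124 bp this was one of the 3 widest regions, with Nav2 (2394 bp) and Nxph4 (2139 bp).

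The strongest regions at gene ends stood at Hr, Jagn1, Afp, Fam216b, Txk, Xylt1, Cdcp2 and Tmem191c. Hr encodes a corepressor of nuclear hormone receptors, and its region held 41, 22 and 36 reads in DIV3 libraries, against 74, 66 and 73 reads in DIV1 libraries. Afp encodes the fetal plasma protein alpha-fetoprotein, and its region held 25, 26 and 17 reads in DIV3 libraries, against 62, 36 and 41 reads in DIV1 libraries. At both genes every DIV3 library was below every DIV1 library, in reads and in percentiles. The Fam216b region held 51, 27 and 32 reads in DIV3 libraries and 28, 16 and 19 reads in DIV1 libraries, so 2 of the 3 DIV3 libraries were above every DIV1 library. The weakest of the 356, near Nckap5, Ptprg and Mcee, had mean percentiles of 2.30 to 3.21 and means of 16.2 to 20 reads.

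Gene lists for granule neuron development were set beside the regions, and a gene counts where a region lay inside it or within 10 kb. Of the 34 axon guidance and adhesion genes, 4 had one (11.8%), namely Ntn1, Slit1, Plxna4 and Efna5, beside 1.03% of all protein-coding genes. Genes with a region were longer, as given above, and the part of gene length in these shares was not tested. Ntn1 encodes netrin-1, a guidance cue, and its region held 48, 24 and 20 reads in DIV3 libraries, against 58, 66 and 62 reads in DIV1 libraries. The region inside Slit1, which encodes a repellent ligand of Robo receptors, held 49, 27 and 10 reads in DIV3 libraries, against 115, 79 and 75 reads in DIV1 libraries. At both genes all DIV3 libraries lay below all DIV1 libraries in reads. The percentiles did not overlap at Ntn1 either, but they did at Slit1, with 35.3, 57.4 and 2.46 in DIV3 libraries and 78.9, 49.7 and 57.7 in DIV1 libraries. Slit1 had 0 regions of all 12 libraries, while Ntn1 had 1, Plxna4, a semaphorin receptor gene, had 3 and Efna5, an ephrin gene, had 1. The Plxna4 region held 46, 11 and 14 reads in DIV3 libraries and 54, 34 and 20 reads in DIV1 libraries. The Efna5 region held 41, 24 and 10 reads in DIV3 libraries and 36, 31 and 14 reads in DIV1 libraries. The days overlapped at both.

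Of 32 glutamate and GABA receptor genes and their scaffolds, 3 had a region: Grip1, Grik4 and Grin2c. Grik4 encodes a kainate receptor subunit, and its region held 17, 22 and 12 reads in DIV3 libraries and 61, 22 and 48 reads in DIV1 libraries. Grin2c encodes an NMDA receptor subunit that mature granule neurons make, and its region held 15, 29 and 31 reads in DIV3 libraries and 26, 13 and 24 reads in DIV1 libraries. Neither separated the days. Of 32 ion channel genes, 2 had a region, Cacna1a and Cacna1c, which encode pore subunits of voltage-gated calcium channels. The Cacna1c region, at chr6:118680459-118681533, held 54, 11 and 12 reads in DIV3 libraries, against 73, 91 and 55 reads in DIV1 libraries. The days did not overlap in reads or in percentiles, but DIV3 replicate 1, the deepest DIV3 library, came within 1 read of the lowest DIV1 library. The Cacna1a region held 31, 21 and 12 reads in DIV3 libraries and 29, 39 and 46 reads in DIV1 libraries.

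Of 23 cadherin genes, 2 had regions, with 2 regions each inside Cdh4 and Cdh13, which encode adhesion molecules. The stronger Cdh13 region held 29, 33 and 41 reads in DIV3 libraries, against 116, 108 and 73 reads in DIV1 libraries. The stronger Cdh4 region held 38, 21 and 24 reads in DIV3 libraries, against 67, 84 and 67 reads in DIV1 libraries. At both the days did not overlap, in reads or in percentiles. The weaker Cdh4 region held 22, 11 and 16 reads in DIV3 libraries, against 33, 39 and 28 reads in DIV1 libraries. Its percentiles overlapped, with 0.61, 13.4 and 33.3 in DIV3 libraries and 2.26, 12.2 and 21.8 in DIV1 libraries. Those of the weaker Cdh13 region did not, with 7.21, 13.4 and 8.67 in DIV3 libraries and 42.4, 36.0 and 21.8 in DIV1 libraries. Of 28 presynaptic and synapse organiser genes, 1 had regions: Syn3, a synapsin gene, whose span also holds Timp3, a metalloproteinase inhibitor gene, so the 2 regions there belong to both by position. Of 7 astrocyte and Bergmann glia markers, only Hopx had a region, 9294 bp away, with 24, 11 and 18 reads in DIV3 libraries and 31, 37 and 22 reads in DIV1 libraries.

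Of 42 neuronal transcription factor genes, 1 had regions: En2, a homeobox gene that patterns the cerebellum. The region at chr5:28168990-28170524 held 61, 17 and 15 reads in DIV3 libraries and 60, 13 and 27 reads in DIV1 libraries. The region at chr5:28170805-28171484 held 25, 22 and 21 reads in DIV3 libraries and 21, 25 and 25 reads in DIV1 libraries. The days overlapped at both. At the first, no more than 4 of the 6 early libraries shared a base, and a late peak lay 52 bp away. En2 also had a region of all 12 libraries at chr5:28164444-28167454, with a mean of 123.2 reads over the early libraries, and one of 11 libraries at chr5:28161464-28162862. The early-only calls thus lay beside stronger binding that was called on every day.

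**Figure D4:**
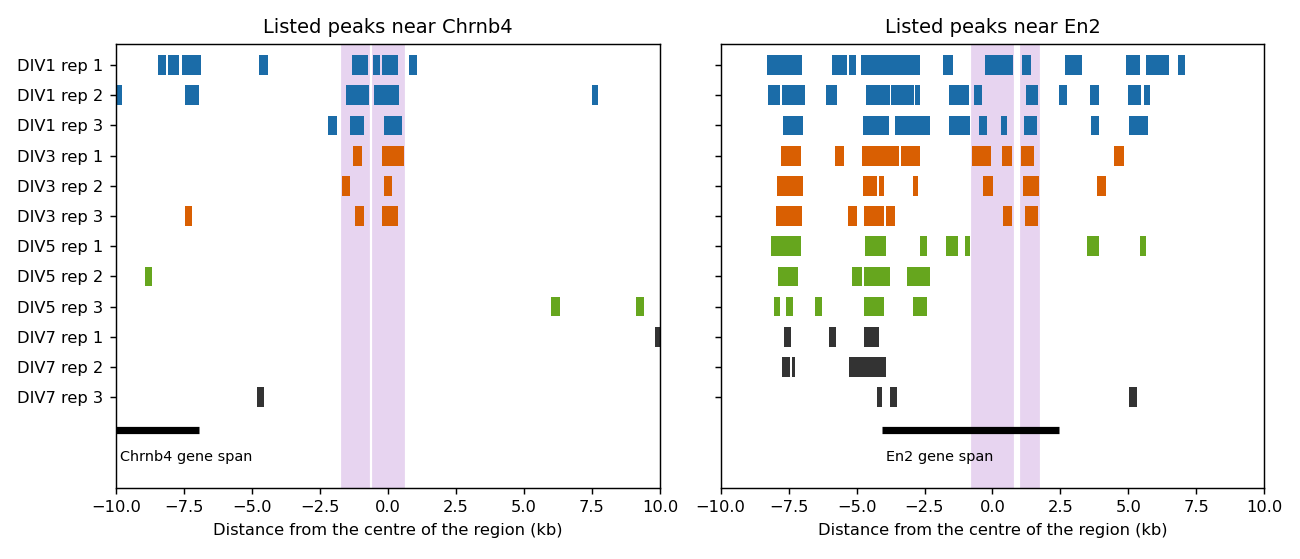
Listed peaks in each of the 12 libraries around the strongest region near Chrnb4 and around the region inside En2 (x axis, distance from the centre of the region in kb, rows are libraries). The Chrnb4 regions have no late peak within 2873 bp, and the En2 regions lie beside a region called in all 12 libraries.

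The remaining lists had no gene with a region inside or within 10 kb. These were the 15 Hedgehog pathway genes, of which 10 had a region of all 12 libraries, the 27 granule progenitor and cell cycle genes, of which 20 had one, the 17 granule neuron genes, and the markers of Purkinje cells (6), inhibitory interneurons (6), the oligodendrocyte lineage (7) and microglia and vessels (5). Taking the nearest gene at any distance added Id4 and Sox4 of the progenitor list, at 317889 and 361815 bp, and En1, Klf7, Neurod6, Grin2b, Grik3, Gria1 and Adra2a among others. These were chosen after their values were seen. The region 206136 bp from En1, the paralog of En2, held 56, 26 and 15 reads in DIV3 libraries and 82, 53 and 70 reads in DIV1 libraries.

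Some genes were nearest to several of the regions. Of the 323 nearest genes, 31 were nearest to at least 2 regions and 2 of them, Adam12 and Frmd4a, to 3. All 3 regions of Adam12, which encodes a membrane metalloprotease, lay inside the gene within 37811 bp. They held 34, 21 and 22, then 42, 22 and 10, then 20, 12 and 15 reads in DIV3 libraries, against 29, 19 and 14, then 49, 41 and 47, then 90, 44 and 52 reads in DIV1 libraries. The days overlapped at the first and second of these regions and, in reads, not at the third, where every DIV3 library was lower. The percentiles of the third overlapped, with 7.21, 13.4 and 8.67 in DIV3 libraries and 78.9, 62.0 and 11.68 in DIV1 libraries. Reln, the gene of the secreted protein reelin that guides neuronal migration, held 2, with 16, 11 and 11 and with 46, 9 and 15 reads in DIV3 libraries, against 44, 44 and 17 and 17, 16 and 13 reads in DIV1 libraries. Ebf3, Tenm4, Kalrn, Abcc8, Glis1, Opcml, Pde10a, Psd3, Csmd2 and Slc39a11 were among the others that held 2 each. By chromosome, the share of regions of all 6 early libraries with no late peak was highest on chromosome 9, with 32 of 1293 (2.47%). It was lowest on X, with 2 of 318 (0.629%), close to chromosomes 3 (0.642%) and 10 (0.648%).

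The contrast of DIV3 with DIV1 was not used to choose the regions, beyond the demand for a peak in all 6 libraries. The 356 regions took 0.398, 0.366 and 0.320% of the reads in peaks in DIV3 libraries, against 0.518, 0.468 and 0.471% in DIV1 libraries. The means were 0.361 ± 0.0393% at DIV3 and 0.486 ± 0.0282% at DIV1 (SD, n = 3 each), and every DIV3 library was below every DIV1 library. No p is given for a sum over regions chosen with results known. Among 51-base libraries, DIV3 replicate 1 had 0.398%, below the 0.468 to 0.518% of the DIV1 libraries. There is no 50-base DIV1 library to set beside the other DIV3 libraries. The median percentile of the regions among all 22976 was 14.4, 13.4 and 19.5 in DIV3 libraries and 21.1, 22.9 and 21.8 in DIV1 libraries.

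Region by region, ranks of the maximum signal within a library were converted to normal scores and compared by limma over all 22976 regions, with Benjamini-Hochberg adjustment at 0.05. Of the 356 regions, 1 was lower at DIV3 and 0 were higher, beside 0.152% of all regions lower and 0.335% higher. At an unadjusted p under 0.05, 60 of the 356 (16.9%) were lower, beside 7.02% of all regions, and 18 (5.06%) were higher, beside 7.5%. All 3 DIV3 percentiles lay below all 3 DIV1 percentiles at 62 of the 356 (17.4%), beside 10.1% of all regions, and above them at 16 (4.49%), beside 9.38%. The median difference was -0.25 over the 356 regions and -0.02 over all regions, in units of the normal score, and it was negative at 237 of the 356 (66.6%), against 51.4% of all. The 754 regions with a peak in 1 late library had a median of -0.20, and those with 2, 3, 4, 5 and 6 late libraries -0.07, -0.02, 0.02, 0.02 and -0.02. Regions with 1 late library thus had nearly the same median as the 356.

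**Figure D5:**
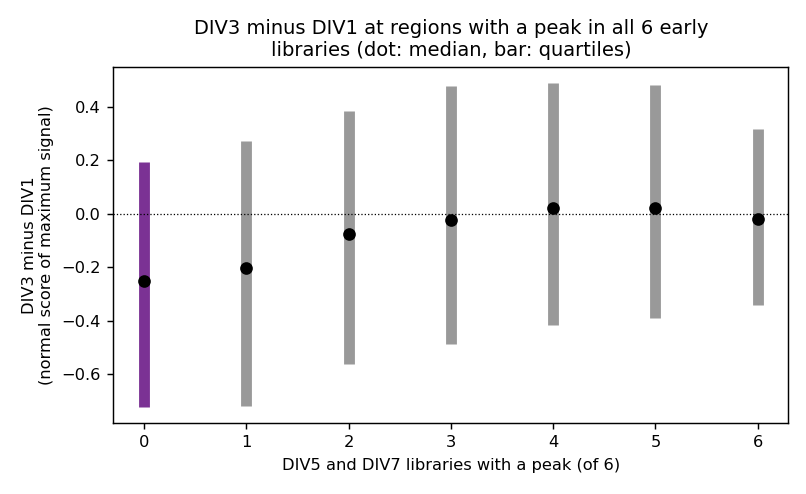
DIV3 minus DIV1 difference in the normal score of maximum signal for regions with a peak in all 6 early libraries, by the number of DIV5 and DIV7 libraries with a peak (dots are medians, bars span the quartiles). The median is -0.25 with no late library and -0.20 with 1, and lies between -0.07 and 0.02 with 2 to 6.

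The region that passed was at Nxph4, which encodes neurexophilin 4, a secreted ligand of neurexins, at chr10:127525588-127527726. It held 58, 14 and 10 reads in DIV3 libraries, against 113, 66 and 89 reads in DIV1 libraries, and every DIV3 library was below every DIV1 library. Its percentiles were 2.73, 4.43 and 0.268 in DIV3 libraries and 31.4, 49.7 and 45.9 in DIV1 libraries. The difference was -1.94 ± 0.388 (SE) in normal score, with an adjusted p of 0.0486 from limma. The call ended when any 1 of the 6 libraries was left out, with adjusted p of 0.0927 to 0.140. It also ended with a replicate block (0.0527), with depth as a covariate (0.199), with read length as a term (0.414), on log2 maximum signal (0.0509) and by total signal (0.0931), all adjusted p of limma. Over all 22976 regions, 0 to 6 were called with 1 library left out, and none with depth or read length. The loss of the call in those fits was therefore not particular to Nxph4. No base of the Nxph4 region was common to all 6 early libraries.

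Total signal, which counts all reads of a region and so also moves with its width, gave more calls. Ranked by it, 13 of the 356 regions were lower at DIV3 and 0 higher by limma's adjusted p, beside 1.29% of all regions lower and 1.44% higher. At an unadjusted p under 0.05 limma had 88 lower among the 356 (24.7%), beside 10.3% of all regions. It had 11 higher among the 356, beside 2399 of all 22976. Nxph4 was not among the 13, and those named next were chosen after their values were seen. The region with the smallest adjusted p, 0.0286, lay 39403 bp from Foxo6, a forkhead factor gene, and held 14, 9 and 10 reads in DIV3 libraries, against 52, 34 and 30 reads in DIV1 libraries. A region inside Vipr1, the gene of a receptor for vasoactive intestinal peptide, held 27, 17 and 17 reads in DIV3 libraries, against 92, 61 and 77 reads in DIV1 libraries, with a limma adjusted p of 0.0292. At both, every DIV3 library was below every DIV1 library in reads, and the percentiles overlapped at Vipr1 but not at the Foxo6 region. The 13 also included the gene end region of Tmem191c and the Adam12 region at which the reads of the days did not overlap.

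The regions next in line by maximum signal did not pass, and were chosen after their values were seen. At the Cacna1c region the difference was -1.65 ± 0.349 (SE), with a limma adjusted p of 0.0583. At a region inside Thrb, the gene of a thyroid hormone receptor, it was 1.65 ± 0.347 (SE), with a limma adjusted p of 0.0583. The Thrb region held 39, 29 and 31 reads in DIV3 libraries, against 20, 17 and 14 reads in DIV1 libraries, and each DIV3 library was above each DIV1 library although the DIV3 libraries had fewer reads in peaks on average. The strongest region, near Chrnb4, differed by -0.66 ± 0.392 (SE), with a limma adjusted p of 0.480.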

How the data were processed

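Zic1/2 CUT&RUN was measured in 12 libraries of cultured mouse granule neurons. Per the submitters' processing notes the build was mm10, and SEACR 1.3, MACS2 2.1, STAR 2.7.2b, Trimmomatic 0.38 and bedtools 2.25.0 are among the tools listed. Which control and threshold were used, and whether duplicates were removed, is not given in the sources used here. The deposited lists have the form of SEACR stringent lists, 1 per library, with the total signal and maximum signal of each peak as the authors computed them, not scaled to depth. Totals were whole multiples of 50 or 51 by library, so totals divided by this number were taken as reads.

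Peaks were merged over all libraries with Python 3.11.15, and a library had a region where any of its peaks overlapped it. DIV3 and DIV1 were compared with limma 3.58.1 (R 4.3.3) on normal scores of the within-library rank of the maximum signal, over all 22976 regions with a peak in all 6 libraries. The limma fit was tried on simulated counts drawn from total signal, not from the maximum signal that the reported test ranks. Genes came from a RefSeq table on GRCm38.p6 that gives spans only, and 1 kb from a span's end stood for a gene end. A planned exact test of the share of reads was left out, because 3 libraries against 3 cannot go below p = 0.1 and the regions were chosen by their peaks.

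The regions and the 15 gene lists were chosen with earlier results of these data known. Named were the 12 strongest regions, the 8 strongest at gene ends, genes nearest to 2 or more regions, list genes within 10 kb, regions called in DIV3 against DIV1, and the 3 widest and 3 weakest. Some results that this rule covers are left out. Others are said to be chosen after their values were seen. Alternatives changed the overlap, merging, peak extent, threshold, libraries, signal measure, region width, replicate block, depth and read length. Intervals are exact binomial and cover counting error only. Low read numbers limit precision, since many regions tie in maximum signal.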

Additional observations from a re-analysis of the deposited data

How the results depend on the processing

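The number of regions was 300 when peaks had to cover 50% of a region, 340 with merging up to 100 bp, 263 with the stronger peaks of each list and 519 without the 3 libraries with fewest reads in peaks. It was 126 with the parts of maximum signal, and 381 to 695 when 1 library was left out. It was 2300 in 50-base libraries alone (2 early and 4 late) and 6274 in 51-base libraries alone (4 early and 2 late), with fewer libraries asked for. The share at gene ends was 14.9% within 5 kb and 2.38% with the parts of maximum signal, and 6.46 to 8.0% under the other rules. The share with a late peak nearby was 19.4% within 500 bp and 73.3% within 5 kb. The DIV3 minus DIV1 share of reads was -0.125 percentage points, -0.143 to -0.104 when 1 library was left out, and -0.337 with reads in regions of at most 2 kb and all 6 early libraries as denominator, an alternative chosen after seeing the data.

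Of the 356 regions, 13 were called in DIV3 against DIV1 by total signal. None was called in regions of at most 2 kb, with the replicate block, or with depth or read length as a term. When 1 library was left out it was 0 to 0. No region of all 22976 was called with depth or read length, and 0 to 6 were with 1 library left out. The absence of calls in those fits therefore says nothing of the 356 in particular. With the limit of 2 kb and with the replicate block, regions outside the 356 were still called. The limit of 2 kb removed the 1 region called otherwise, which is 2139 bp wide, before testing, and left 353. At an unadjusted p under 0.05, limma called 72 of the 353 regions of at most 2 kb, beside 2637 of all 17867. With the replicate block it called 82 of the 356 and with depth 60, beside 3477 and 2433 of all 22976. With 1 library left out it called 54 to 71, beside 2849 to 3262. Lower at DIV3 were 15.9, 17.1 and 13.8% in the first 3 of these fits, beside 6.97, 7.12 and 5.07% of all regions. Higher were 16, 21 and 11, beside 1392, 1841 and 1268 of all. With read length as a term limma called 51 of the 356 at that level, beside 2018 of all 22976. There 10.7% of the 356 were lower, beside 4.2% of all, and 13 were higher, beside 1052 of all. On log2 maximum signal 1 of the 356 was called, higher at DIV3, beside 0.531% of all 22976 regions higher and 0.135% lower. The median difference was -0.0594 on that scale, where all regions had 0.04, and -0.34 to -0.25 in the other alternatives. Same-numbered libraries of DIV3 and DIV1 correlated by 0.0357 to 0.0728 in their deviations, and different-numbered ones by -0.0746 to 0.0158. The same-numbered values were thus the higher ones. Whether the numbers pair the libraries was not tested, and the main fit took no pairing. The replicate block left a median of -0.25. In every fit run the median over the regions was negative. The CAGCAGG search over whole regions and its window alternatives were not run, since no genome sequence was used here. The cause of these differences was not tested. Many of the peaks rest on few reads, and what part depth has was not tested.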
